A study of Mus musculus with 12 samples.

Results

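RNA encoded by the mouse mitochondrial genome was measured in 12 RNA sequencing libraries from tissue and cells in which the gene Impdh2, which encodes an enzyme of guanine nucleotide synthesis, was intact or deleted. The members were the genes whose Ensembl identifier maps to a mouse symbol starting with mt-, which gave 37 of 51826 identifiers in the forelimb table and the same 37 of 55401 in the culture tables. They were 13 protein-coding genes, 2 ribosomal RNA (rRNA) genes and 22 transfer RNA (tRNA) genes, and the 3 classes are described apart. The rule uses the symbol alone.

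The libraries fell into 6 groups of 2. Forelimbs were taken from embryos at E12.5, labelled Impdh2 WT or Impdh2 Prx-cKO, the deletion aimed at limb mesenchymal progenitors. The cultures came from bone marrow cells of mice labelled Impdh2 WT or LysM-cKO, the deletion aimed at the myeloid lineage from which osteoclasts form, and each genotype was titled R40D3 or R0D3. All 8 culture libraries carry the same protocol, in which marrow cells were grown for 3 days in medium with L929 supernatant (as much M-CSF, a macrophage growth factor, as 20 ng/ml), then replated overnight and given 40 ng/ml of RANKL, the cytokine that induces osteoclasts. The labels do not spell out R40D3 and R0D3, so both are used as names, and that they stand for RANKL doses was not assumed. Prx and LysM are the usual names of Cre drivers active in limb mesenchyme and in myeloid cells. A whole forelimb also holds blood, muscle, vessel and skin cells that such a driver does not target. The numbers of animals, any pooling and, for the marrow donors, the age are not given. Because nothing says that libraries of a group came from separate animals or cultures, p-values measure the spread between these libraries, which may be technical.

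The mitochondrial genome is a small circle that is copied into long RNAs from both of its strands. Most of its genes lie on 1 strand, and the tRNAs between them are cut out to release the messenger and ribosomal RNAs. Its proteins are subunits of the respiratory chain and of ATP synthase: the mt-Nd genes encode parts of complex I (NADH dehydrogenase), mt-Cytb a part of complex III, the mt-Co genes parts of complex IV (cytochrome c oxidase) and mt-Atp6 and mt-Atp8 parts of ATP synthase. The 2 rRNAs, mt-Rnr1 and mt-Rnr2, form the core of the mitochondrial ribosome. Osteoclasts are known as cells rich in mitochondria.

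Total counts were 28892215 to 69466572 per forelimb library and 16009146 to 19221865 per culture library. Levels are given in CPM, counts per 1000000 counts of the library, computed here with scaled library sizes, and fold changes on the log2 scale with a standard error (SE). Impdh2 was at 260.3 and 272 CPM in WT and 170 and 199 CPM in Prx-cKO forelimbs, a log2 fold change of -0.53 that did not pass edgeR's quasi-likelihood test (Benjamini-Hochberg adjusted p = 0.443). It was at 22.3 to 28.2 CPM in the 4 WT cultures and at 7.03 to 8.37 CPM in the 4 LysM-cKO cultures, and passed in both titles (adjusted p = 0.0386 at R40D3 and 0.0324 at R0D3, edgeR). The summed level of 10 osteoclast markers was 313 to 455 CPM in the R0D3 cultures. At R40D3 it was 25933 and 38208 CPM in WT and 12977 and 24388 CPM in LysM-cKO. Macrophage markers were abundant in all 8 cultures, at a summed 18350.2 to 43523 CPM over 8 genes, and limb mesenchyme markers reached 1209 to 1756 CPM over 10 genes in the forelimbs.

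All 37 members are listed in every table, but the classes were not detected alike. The 13 coding genes and the 2 rRNA genes had counts in all 12 libraries. In the forelimb, 20 of the 22 tRNA genes passed the filter on low counts, with mt-Tf and mt-Td left out. In the cultures 20 of the 22 tRNA genes had 0 counts in all 8 libraries, which allows a level of up to 0.156 to 0.187 CPM, depending on the library (3 counts of the total, counting error only). Of the other two, mt-Tc had 3 counts in total and mt-Tp had 554 to 2304 counts per library. Library preparation used an mRNA kit. A count on a tRNA gene is therefore a read over that stretch of the genome and not a measure of the mature tRNA pool. Counts on the rRNA genes are likewise not a measure of the rRNA pool.

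Some neighbouring members overlap on the genome, which matters for how reads were assigned. The last 43 bases of mt-Atp8 are the first 43 bases of mt-Atp6, and the last 7 bases of mt-Nd4l are the first 7 of mt-Nd4. The sequences at these joints are given 5′ to 3′ from the GENCODE M21 transcripts (GRCm38), with the shared bases in capitals, at chrM:7897-7969 for mt-Atp8, chrM:7927-7999 for mt-Atp6, chrM:10137-10173 for mt-Nd4l and chrM:10167-10203 for mt-Nd4, all on the plus strand.
mt-Atp8 end: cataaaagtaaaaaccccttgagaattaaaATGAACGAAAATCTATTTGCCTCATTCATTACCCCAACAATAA
mt-Atp6 start: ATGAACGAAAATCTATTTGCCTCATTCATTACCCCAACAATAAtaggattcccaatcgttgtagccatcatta
mt-Nd4l end: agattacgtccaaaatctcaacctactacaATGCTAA
mt-Nd4 start: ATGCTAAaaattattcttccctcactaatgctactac
In both pairs the capitals open with the start codon of the downstream gene and close with the stop codon of the upstream gene. A further 14 bases are shared by mt-Nd5 and mt-Nd6, which lie on opposite strands. How the authors' counting treated reads over shared bases, reads that match several places, and strand is not given in the sources used here.

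Nuclear copies were a further source of uncertainty, because the mouse genome holds a stretch on chromosome 1 that repeats part of the mitochondrial genome. Annotated transcripts there matched mt-Co2, mt-Atp6, mt-Co3 and mt-Nd4l over nearly their whole length with 100% identity. The copy of mt-Nd3, Gm28438, differed from it at 1 of 345 bases, T3C, counted from 1 at the 5′ end of mt-Nd3 (T in the mitochondrial gene, C in the copy). The first 23 bases of each are shown because this is the only base that tells the pair apart, in capitals.
mt-Nd3 around base 3: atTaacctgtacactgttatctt
Gm28438 around base 3: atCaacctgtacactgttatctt
The mt-Nd3 stretch is chrM:9459-9481 on the plus strand. Gm28439 matched bases 1 to 876 of the 1378 bases of mt-Nd4 with 100% identity, and Gm29216 matched bases 1063 to 1545 of mt-Co1 with 99.8% identity. No annotated copy transcript matched mt-Atp8 over 100 bases or more, and stretches without an annotated transcript were not searched.

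In the forelimb, the copies were counted almost as often as the mitochondrial genes. Per 100 counts of the mitochondrial gene, the copy of mt-Co2 (Gm28661) had 99.3 to 99.5 counts over the 4 libraries. The copy of mt-Co3 (Gm28437) had 98.8 to 99.7, that of mt-Nd3 97.5 to 98.8 and that of mt-Nd4l (Gm10222) 98.7 to 99.3. For mt-Atp6 the copy, Gm10925, had more counts than the gene, at 391 to 514 per 100. The partial copies had 28.8 to 39.5 counts per 100 of mt-Nd4 and 12.46 to 22.7 per 100 of mt-Co1. A chromosome 2 copy of mt-Co2, Gm13341, with 95.9% identity, stood apart in WT replicate 1, with 3731 counts against 497 in WT replicate 2 and 1085 and 639 in Prx-cKO.

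The culture tables gave another picture for the same genes. The copy of mt-Co2 had 43.0 to 53.2 counts per 100 of the gene, and the partial copies had 0.331 to 0.599 per 100 of mt-Nd4 and 0.0461 to 0.0705 per 100 of mt-Co1. The near-whole copies of mt-Co3, mt-Nd3 and mt-Nd4l ranged from 40 to 175 per 100, on few counts. Reads that match a gene and its copy equally cannot be told apart, and the handling of such reads was not tested.

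**Figure D1:**
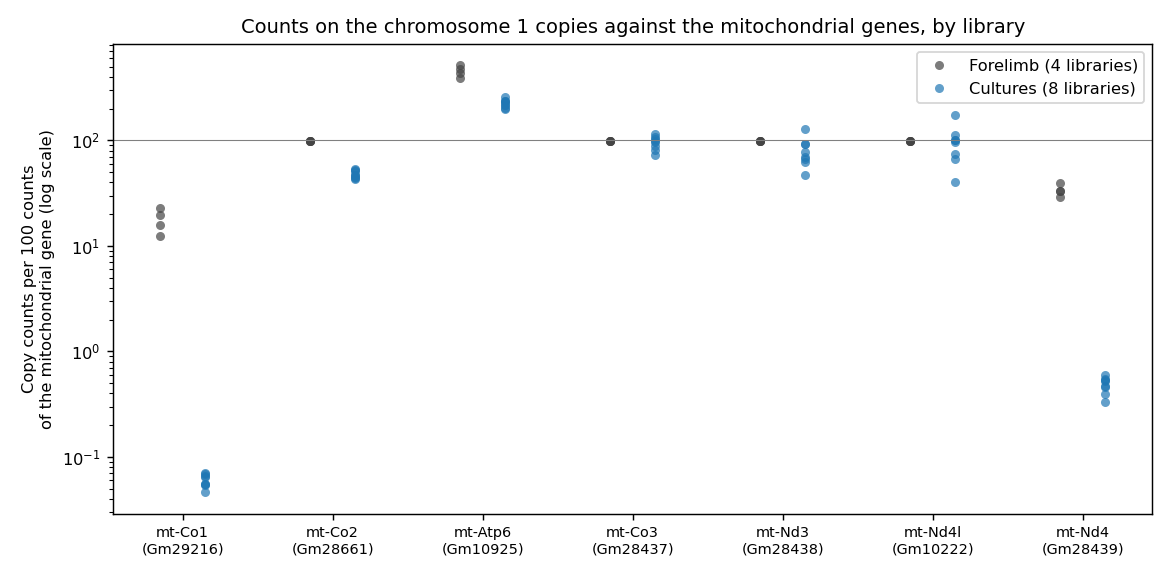
Counts on the chromosome 1 copies per 100 counts of the matching mitochondrial gene (log scale), with 1 point for each library, for the 4 forelimb libraries (grey) and the 8 culture libraries (blue). The forelimb points for mt-Co2, mt-Co3, mt-Nd3 and mt-Nd4l lie at 97.5 to 99.7, just under the line at 100, and the copies of mt-Nd4 and mt-Co1 are far lower in the cultures than in the forelimb.

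The 6 coding genes from mt-Co2 to mt-Nd4l had few counts in the culture tables. In the 8 culture libraries mt-Co2 had 398 to 833 counts, mt-Co3 167 to 362, mt-Atp6 92 to 245, mt-Nd3 13 to 26, mt-Nd4l 4 to 23 and mt-Atp8 3 to 15. The other 7 coding genes had between 4075 counts (the lowest of mt-Nd6) and 299796 counts (the highest of mt-Co1). These 6 neighbours, which lie together at chrM:7013-10173, made up 27.3% to 29.96% of all coding counts in the forelimb and 0.206% to 0.380% in the cultures. Their mean CPM was 62.7 times (mt-Co2) to 1146 times (mt-Atp8) as high in the forelimb as in the cultures, whereas the ratio was 0.610 (mt-Co1) to 1.88 (mt-Nd4) for the other 7. The forelimb and culture tables were counted separately, so these ratios are values set side by side with no test. The copy ratios above also differed between the tables for several of these genes. How each table treated reads that match several places is not given, and its part in the low culture counts was not tested, so the ratios cannot be read as differences in RNA level.

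Per length, mt-Co3 led in the forelimb at a mean of 5460.0 CPM per kb over the 4 libraries (4954 to 6381), next to mt-Co1 at 5107 (4758 to 5452), so the ranges of this pair overlapped. Then came mt-Nd1 at 3523, mt-Co2 at 3187, mt-Atp8 at 3132 and mt-Cytb at 2976, whose ranges all overlapped. The others were mt-Nd2 at 1494, mt-Nd4 at 1313, mt-Nd5 at 1090.4, mt-Nd6 at 1006, mt-Atp6 at 972, mt-Nd3 at 961 and mt-Nd4l at 679 CPM per kb. These values leave out counts on the nuclear copies. Over the 4 libraries, Gm10925 held 557499 counts beside 122846 on mt-Atp6, and Gm28437 held 821043 beside 826979 on mt-Co3. Reads matching a gene and its copy equally cannot be told apart, so the places of the copied genes, mt-Atp6 above all, are uncertain. Both rRNAs lay below every coding gene, with mt-Rnr2 at 416 and mt-Rnr1 at 364 CPM per kb. As these are counts from an mRNA kit, the order does not compare the pools of rRNA and messenger RNA.

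In the cultures mt-Co1, the catalytic core subunit of complex IV, stood alone at the top with 8367 CPM per kb (6548 to 10787 over the 8 libraries). The ranges of mt-Cytb at 2341 and mt-Nd1 at 2251 overlapped, as did those of mt-Nd2 at 1104 and mt-Nd5 at 1065, and those of mt-Nd4 at 699 and mt-Nd6 at 685 CPM per kb. The low genes followed with mt-Co2 at 50.8, mt-Co3 at 20.5, mt-Atp6 at 13.1, mt-Nd3 at 3.20, mt-Atp8 at 2.73 and mt-Nd4l at 2.50 CPM per kb. Their order is uncertain too, because it leaves out the nuclear copies. Over the 8 libraries, Gm10925 held 2778 counts beside 1242 on mt-Atp6. The rRNA genes were at 266 (mt-Rnr1) and 262 (mt-Rnr2) CPM per kb.

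**Figure D2:**
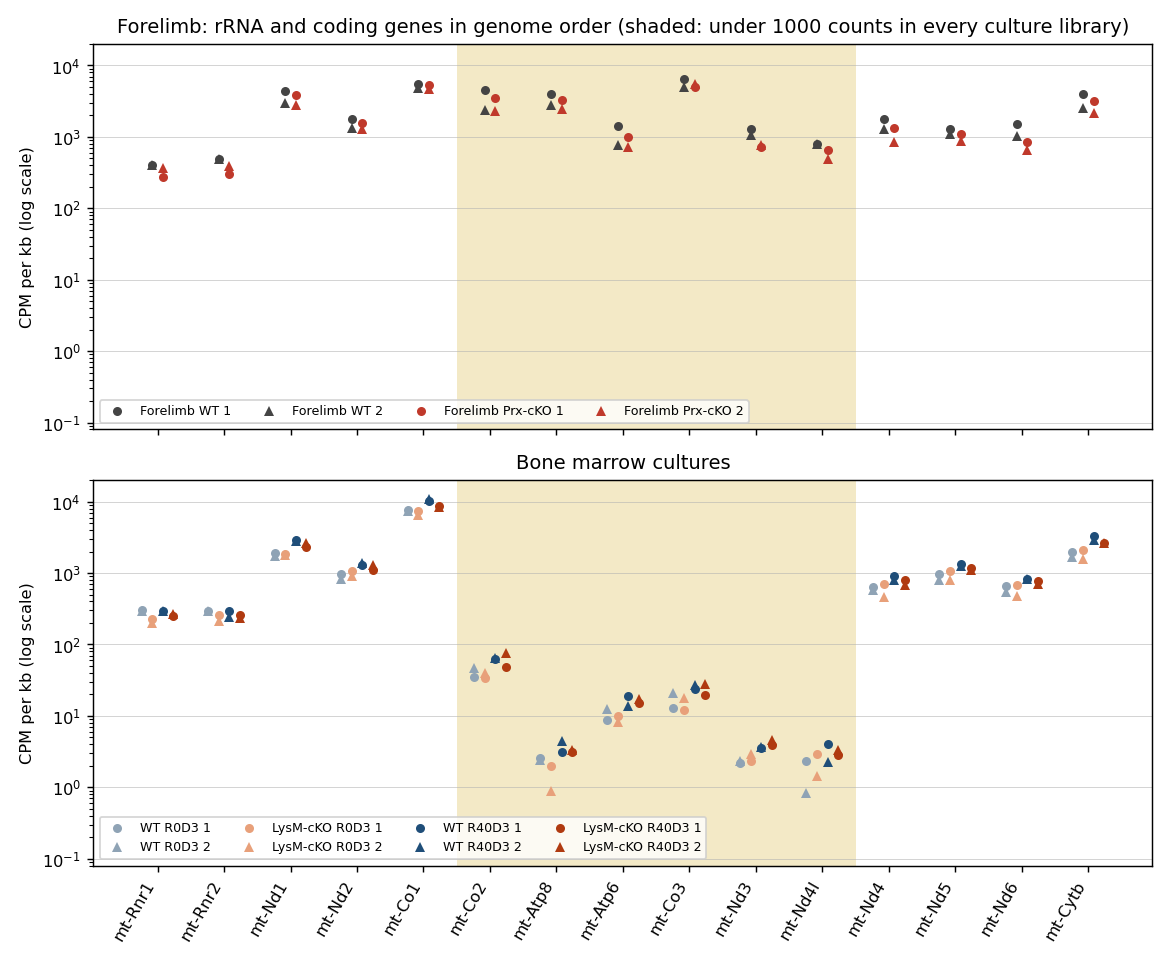
CPM per kb of gene length (log scale) of the rRNA and coding genes in genome order, in the forelimb (top) and the cultures (bottom), with 1 point per library, circles for replicate 1 and triangles for replicate 2. The shaded genes, mt-Co2 to mt-Nd4l, lie between 496 (mt-Nd4l) and 6381 (mt-Co3) CPM per kb in the forelimb libraries. They are below 100 CPM per kb in every culture library.

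Mitochondrial coding RNA was higher in the R40D3 cultures, where osteoclast markers were high, than in the R0D3 cultures. The 13 coding genes together took 1.97% and 1.81% of all counts in WT R0D3 (replicates 1 and 2) and 2.03% and 1.67% in LysM-cKO R0D3. At R40D3 they took 2.76% and 2.79% in WT and 2.40% and 2.36% in LysM-cKO. All 4 R40D3 libraries lay above all 4 R0D3 libraries, and the exact 95% (Clopper-Pearson) interval of a share, which covers counting error only, was at most 0.0159 percentage points wide. The means were 2.58% ± 0.227 and 1.87% ± 0.163 (SD, n = 4 each), a ratio of 1.38, with p = 0.0286 in a two-sided exact permutation test, the smallest that 4 against 4 can give. Adjusted over the 8 tests of this family it was 0.0762 and did not pass. The family held this share and the rRNA, mt-Tp and mt-Nd6 ratios given below, each compared between titles and between genotypes. Between genotypes the share was 2.12% in LysM-cKO and 2.33% in WT (means, n = 4 each, exact permutation p = 0.514). The genotype tests of the ratios had an exact permutation p of 0.514 to 0.657. The tests of this family permuted the libraries without regard to the other label or to the replicate number, so they did not use the pairing. Each replicate number came in a table of its own, and within each table the share was higher at R40D3 in both genotypes.

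In WT cultures, 3 coding genes rose from R0D3 to R40D3: mt-Nd1, mt-Nd2 and mt-Cytb. This compares with 11.4% of the 14030 tested genes called higher and 16.9% called in either direction. The complex I subunit mt-Nd1 (ENSMUSG00000064341, chrM:2751-3707) was at 1809 and 1666 CPM in WT R0D3 and at 2799.7 and 2720.1 CPM in WT R40D3. Its groups did not overlap, and the log2 fold change was 0.67 (SE 0.13, adjusted p = 0.0138, edgeR). For mt-Nd2 (ENSMUSG00000064345, chrM:3914-4951), also of complex I, the levels were 993 and 857 CPM against 1334 and 1421 CPM, a log2 fold change of 0.57 (SE 0.14, adjusted p = 0.0306, edgeR). The cytochrome b gene mt-Cytb (ENSMUSG00000064370, chrM:14145-15288) went from 2248 and 1915 CPM to 3724 and 3349 CPM, a log2 fold change of 0.76 (SE 0.18, adjusted p = 0.0265, edgeR).

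The other 10 coding genes had higher fitted means in WT R40D3 without passing that test. Among them mt-Co1 (chrM:5328-6872) was at 11883 and 11290.2 CPM in R0D3 and 15667 and 16666 CPM in R40D3, a log2 fold change of 0.48. The complex I genes mt-Nd4 (chrM:10167-11544), mt-Nd5 (chrM:11742-13565) and mt-Nd6 (chrM:13552-14070, minus strand) had log2 fold changes of 0.51, 0.56 and 0.48. On far fewer counts, the low genes had 0.62 (mt-Co2), 0.57 (mt-Atp8), 0.62 (mt-Atp6), 0.61 (mt-Co3), 0.69 (mt-Nd3) and 0.98 (mt-Nd4l). The reads of these low genes, mt-Atp8 left aside, cannot be told apart from those of the nuclear copies. For mt-Atp8 no annotated copy transcript was found, but stretches without an annotated transcript were not searched. Its last 43 bases also lie in mt-Atp6, whose copy matched with 100% identity. Whether the reads of mt-Atp8 can be told apart is therefore not known. Over the 13 genes the median log2 fold change was 0.61, beside 0.01 over all genes tested, and 0.56 over the 7 abundant genes alone. In 12 of the 13, all but mt-Nd4l, both R40D3 libraries lay above both R0D3 libraries, beside 32.9% of all genes tested.

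How many of these genes were called depended on the model. With the replicate number as a block, which in these cultures pairs the libraries, 8 of 13 passed (mt-Nd1, mt-Nd2, mt-Co2, mt-Co3, mt-Nd4, mt-Nd5, mt-Nd6 and mt-Cytb), beside 16.7% of all genes called higher by that fit. DESeq2 called 5, adding mt-Co1 and mt-Nd5 to the 3, beside 10.5%. Leaving out any of the 4 WT libraries left 0 called by edgeR.

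LysM-cKO cultures had higher fitted means at R40D3 for all 13 coding genes too, with a median log2 fold change of 0.49 beside 0.01 over all genes. None passed edgeR's test, where the smallest adjusted p was 0.0679, beside 6.99% of all genes called higher and 10.1% in either direction. At an unadjusted p under 0.05, 4 were higher, beside 14.4% of all genes. The block fit called 6 (mt-Nd1, mt-Co2, mt-Atp6, mt-Co3, mt-Nd6 and mt-Cytb), beside 13% of all genes called higher, and DESeq2 called 3 (mt-Nd1, mt-Co2 and mt-Cytb), beside 7.48%. The level of mt-Nd1 was 1794 and 1692 CPM at R0D3 and 2216 and 2536 CPM at R40D3, and that of mt-Cytb 2384 and 1786 against 3049 and 2971 CPM. Neither gene's groups overlapped, and the log2 fold changes were 0.45 and 0.53. In 11 of the 13 genes the R40D3 libraries lay above the R0D3 libraries, beside 27.3% of all genes, and the median over the 7 abundant genes was 0.34.

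No rRNA was called between R0D3 and R40D3 by edgeR, DESeq2 or the block fit in either genotype. In WT, mt-Rnr1 (chrM:70-1024) was at 288 and 280.2 CPM in R0D3 and 282 and 278 CPM in R40D3, a log2 fold change of -0.02 (adjusted p = 0.910, edgeR). The larger rRNA, mt-Rnr2 (chrM:1094-2675), was at 471 and 463 CPM against 461 and 382 CPM, lower without overlap beside 29.2% of all genes, with a log2 fold change of -0.15 (adjusted p = 0.519, edgeR). In LysM-cKO, mt-Rnr1 was at 219.9 and 191 CPM in R0D3 and 237 and 252 CPM in R40D3. It was higher without overlap, beside 27.3% of all genes, with a log2 fold change of 0.25 (SE 0.09, adjusted p = 0.150, edgeR). That value is close to those of mt-Nd2 (0.27) and mt-Co1 (0.28) in the same comparison. The groups of mt-Rnr2 overlapped there, with a log2 fold change of 0.06. Per 100 coding counts there were 3.80 and 4.06 rRNA counts in WT R0D3 and 3.16 and 3.11 in LysM-cKO R0D3. At R40D3 there were 2.68 and 2.35 in WT and 2.76 and 2.69 in LysM-cKO. All 4 R40D3 libraries were lower (2.62 ± 0.184 against 3.54 ± 0.471, SD, n = 4 each). The exact permutation p was 0.0286, and 0.0762 when adjusted over the 8 tests. This ratio was chosen after the counts were seen, and it compares counts from an mRNA kit, not RNA pools.

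The single tRNA gene with appreciable counts in the cultures, mt-Tp (ENSMUSG00000064372), encodes the proline tRNA and lies at chrM:15356-15422 on the minus strand, at the edge of the control region. Its sequence is shown on the strand of the gene, with the anticodon in capitals.
mt-Tp: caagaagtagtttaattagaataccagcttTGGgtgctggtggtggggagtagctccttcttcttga
Its level was 36.7 and 44.4 CPM in WT R0D3 and 33.8 and 33.6 CPM in LysM-cKO R0D3. At R40D3 it was 84.5 and 141 CPM in WT and 61.1 and 98.0 CPM in LysM-cKO, so that all 4 R40D3 libraries lay above all 4 R0D3 libraries. The rise passed in both genotypes, with a log2 fold change of 1.47 in WT (SE 0.29, adjusted p = 0.0127, edgeR) and 1.24 in LysM-cKO (SE 0.29, adjusted p = 0.0368, edgeR). Leaving out WT R40D3 replicate 2, the highest library, lowered the WT value to 1.02 (adjusted p = 0.0984), and without LysM-cKO R40D3 replicate 2 the LysM-cKO value was 0.82 (adjusted p = 0.192). Calls were also lost without either R0D3 library of the genotype, where the log2 fold change stayed between 1.23 and 1.62. Per 100 coding counts mt-Tp had 0.169 to 0.243 counts in R0D3 and 0.262 to 0.501 in R40D3, where replicate 2 was the higher of both genotypes. In the forelimb it had 0.0182 to 0.0259. Forelimb and cultures were counted separately, and far more of the forelimb coding counts lie on mt-Co2 to mt-Nd4l. The forelimb and culture ratios therefore cannot be read as a difference in RNA level. The minus-strand gene mt-Nd6 had 1.62 counts per 100 plus-strand coding counts at R40D3 and 1.63 at R0D3 (means over n = 4 each, exact permutation p = 0.943), a difference far under the spread between libraries. Since use of strand in counting is not given, reads from RNA of the opposite strand over mt-Tp cannot be told apart from its own.

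**Figure D3:**
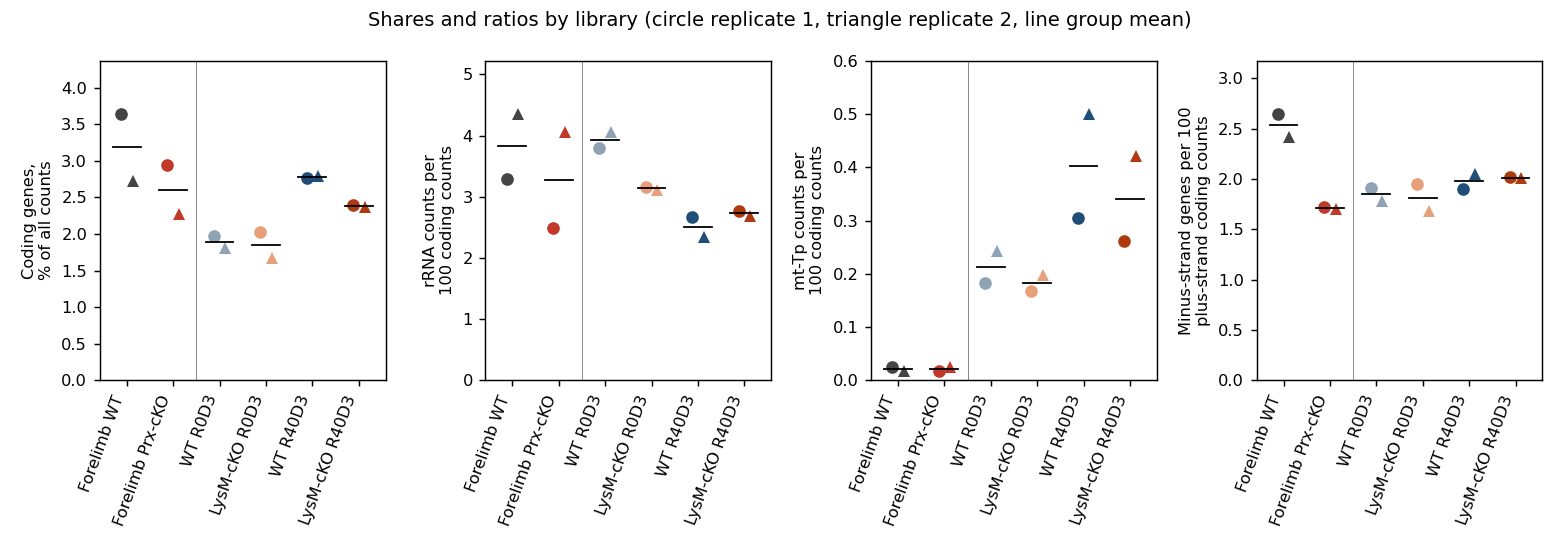
Percent of all counts on the coding genes, rRNA counts per 100 coding counts, mt-Tp counts per 100 coding counts, and counts on the 9 minus-strand genes per 100 plus-strand coding counts, for each library by group, with a line at the group mean. The R40D3 cultures have the higher coding share and mt-Tp ratio and the lower rRNA ratio, and the Prx-cKO forelimbs have the lower minus-strand ratio.

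Beside these differences, the R40D3 and R0D3 cultures differed in cell type markers: the osteoclast marker sum was higher at R40D3, as given above. The macrophage sum was 38374 and 43523 CPM in WT R0D3 against 26847 and 27542 CPM in WT R40D3. In LysM-cKO it was 23979 and 24506 CPM at R0D3 against 20273 and 18350 CPM at R40D3. Most of the macrophage sum at R0D3 came from Lyz2 alone, whose values are given below. In bulk RNA, a change in the share of a cell type and a change in RNA per cell cannot be told apart, and the part of cell composition in the mitochondrial values was not tested. The stromal fibroblast marker sum was 415 and 487 CPM in the LysM-cKO replicate 2 libraries and 1168 to 1561 CPM in the other 6 cultures, and its part was not tested either.

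Deleting Impdh2 in the myeloid lineage gave no called mitochondrial gene in the cultures. At R40D3, edgeR called 0 of the 13 coding genes, beside 0.0143% of all genes tested, and 0 had an unadjusted p under 0.05, beside 7.46%. DESeq2, which gave 3 of them no adjusted p, called 0, beside 0.135%, and the block fit called 0, beside 0.214%. Of the 13, 12 were lower in LysM-cKO, with a median log2 fold change of -0.17 beside -0.01 over all genes and a range from -0.30 (mt-Co1) to 0.22 (mt-Nd3). Groups did not overlap in 6, mt-Nd1, mt-Co1, mt-Nd4, mt-Nd5, mt-Nd6 and mt-Cytb, all lower, and in mt-Nd3, which was higher. Of all genes tested, 18.9% were lower and 19.7% higher without overlap. As an example, mt-Co1 (SE 0.22) was at 15667 and 16666 CPM in WT and 13272 and 13033 CPM in LysM-cKO. In the same libraries the osteoclast marker sum was 25933 and 38208 CPM in WT and 12977 and 24388 CPM in LysM-cKO, also lower without overlap, and its part in the mitochondrial values was not tested. The rRNAs had -0.19 and -0.11, and mt-Tp -0.50 (adjusted p = 0.668, edgeR).

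At R0D3, edgeR again called 0 of the 13 coding genes, beside 0.0143% of all genes, and 0 had an unadjusted p under 0.05, beside 4.41%. DESeq2, again with 3 genes given no adjusted p, called 0, beside 0.0499%, and the block fit called 0, beside 0.0214%. Here 7 were lower and 6 higher in LysM-cKO, with a median of -0.04. Groups did not overlap only for mt-Atp8, which rested on 3 to 9 counts per library and was lower in LysM-cKO, beside 14.8% of all genes lower without overlap. The rRNAs were the members that differed most for their error. The level of mt-Rnr1 was 288 and 280.2 CPM in WT R0D3 and 219.9 and 191 CPM in LysM-cKO R0D3, and that of mt-Rnr2 471 and 463 against 415 and 336 CPM. Neither overlapped, beside the same 14.8% of all genes, and the log2 fold changes were -0.47 (SE 0.09) and -0.31 (SE 0.13), but neither passed (adjusted p = 0.997 for both, edgeR), and at an unadjusted p under 0.05 they stood beside the same 4.41% of all genes. The adjusted p of mt-Rnr1 was 0.194 with the block and 0.0963 by DESeq2. In the same libraries the macrophage marker sum was 38374 and 43523 CPM in WT and 23979 and 24506 CPM in LysM-cKO, and its part in the rRNA values was not tested. Of that sum, Lyz2, whose locus drives LysM Cre, held 29972 and 35226 CPM in WT and 15391 and 16842 CPM in LysM-cKO.

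Whether the R40D3 to R0D3 difference itself depended on genotype was tested as an interaction. EdgeR, DESeq2 and the block fit each called 0 members, and 0 members had an unadjusted p under 0.05 in edgeR, beside 0% of all genes called and 1.76% at an unadjusted p under 0.05. The median interaction was -0.17 over the 13 coding genes and -0.22 over the 7 abundant ones, all 7 below 0, with standard errors from 0.19 (mt-Nd1) to 0.32 (mt-Co1). That WT cultures had 3 calls and LysM-cKO cultures 0 is therefore not shown to be a difference between the genotypes. The comparisons of titles and of genotypes share libraries, so their fold changes are not independent.

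**Figure D4:**
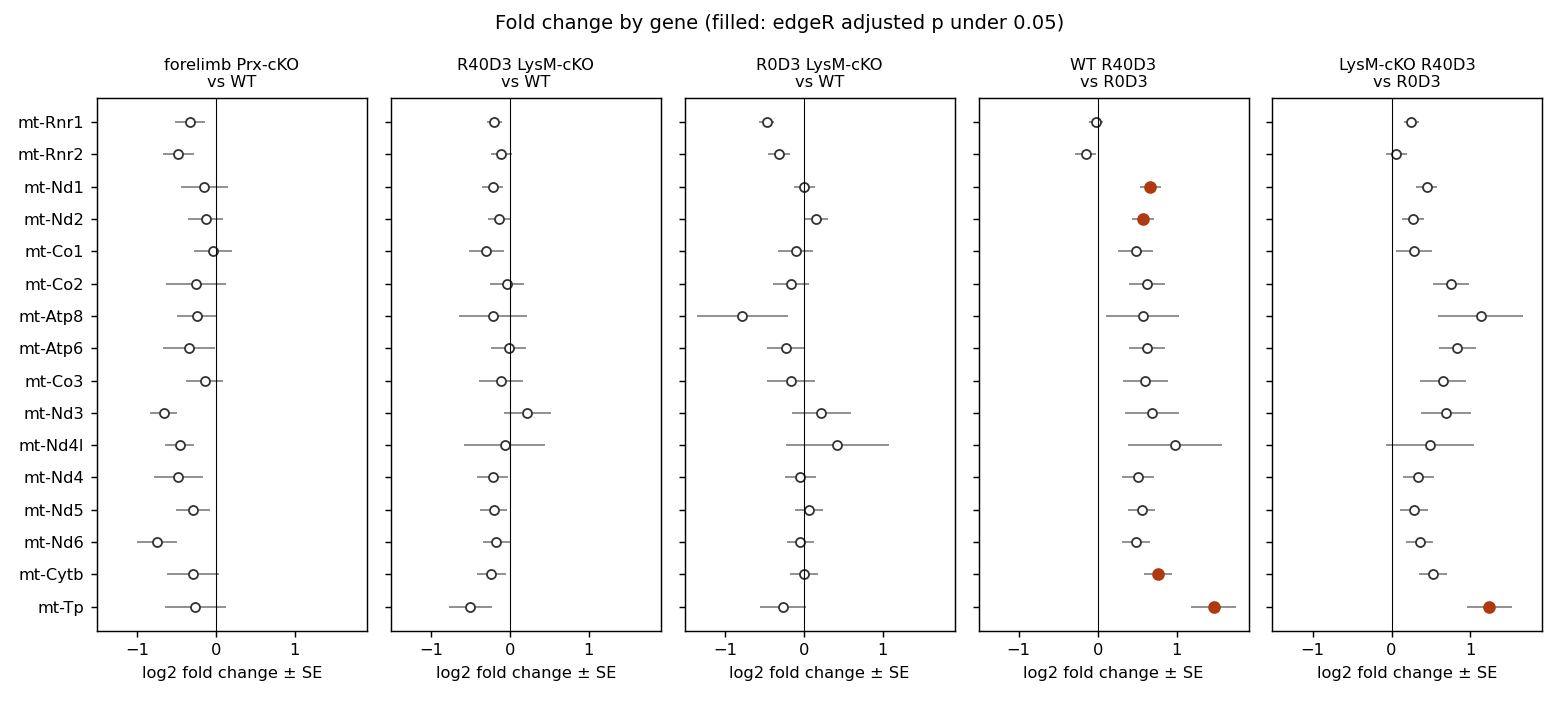
Log2 fold change with SE of the rRNA genes, the coding genes and mt-Tp in the 5 comparisons of groups, filled where edgeR's adjusted p was under 0.05. Coding genes lie right of 0 in both R40D3 against R0D3 comparisons, filled for mt-Nd1, mt-Nd2 and mt-Cytb in WT and for mt-Tp in both, and no gene is filled in a comparison of genotypes.

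In the forelimb, where Impdh2 was lower by less and did not itself pass, no mitochondrial gene was called by edgeR. The coding genes took 3.64% and 2.73% of all counts in WT and 2.94% and 2.27% in Prx-cKO, so the groups overlapped. All 13 had lower fitted means in Prx-cKO, with a median log2 fold change of -0.29 beside -0.03 over all genes and a range from -0.75 to -0.04. Of the 13, edgeR called 0, beside 0% of the 19987 genes tested, DESeq2 called 0, beside 1.97%, and 3 had an unadjusted p under 0.05, beside 10.5% in either direction. The median rested on single libraries: without WT replicate 1 it was 0.00146, and without Prx-cKO replicate 1 it was -0.56.

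The coding genes whose groups did not overlap were mt-Nd3, mt-Nd4l, mt-Nd5 and mt-Nd6, all of complex I and all lower, 4 of 13 beside 21% of all genes lower without overlap. The level of mt-Nd6 was 779 and 531 CPM in WT and 443 and 337 CPM in Prx-cKO, a log2 fold change of -0.75 (SE 0.26, adjusted p = 0.460, edgeR). For mt-Nd3 (chrM:9459-9806) the levels were 456 and 364 against 250 and 268 CPM, a log2 fold change of -0.66 (SE 0.17, adjusted p = 0.424, edgeR). For mt-Nd4l (chrM:9877-10173) they were 232 and 234 against 192 and 147 CPM, a log2 fold change of -0.46 (SE 0.18, adjusted p = 0.475, edgeR). The counts of mt-Nd3 and mt-Nd4l are uncertain because their copies on chromosome 1 were counted almost as often. For mt-Nd5 the levels were 2342 and 2032 against 1999.9 and 1581 CPM, a log2 fold change of -0.29 (SE 0.21, adjusted p = 0.676, edgeR).

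By complex, the 7 mt-Nd genes had a median log2 fold change of -0.46, the 3 mt-Co genes -0.14 and the 2 ATP synthase genes -0.29. Among those whose groups overlapped, mt-Co1 was at 8423 and 7581 CPM in WT and 8209 and 7351 CPM in Prx-cKO (log2 fold change -0.04), mt-Co3 (chrM:8607-9390) had -0.14 and mt-Co2 (chrM:7013-7696) -0.25. The values were -0.34 for mt-Atp6 (chrM:7927-8607), -0.25 for mt-Atp8 (chrM:7766-7969), -0.29 for mt-Cytb, -0.15 for mt-Nd1, -0.13 for mt-Nd2 and -0.48 for mt-Nd4. Both rRNAs were lower without overlap, beside the same 21% of all genes. The level of mt-Rnr1 was 390 and 385 CPM in WT and 264 and 352 CPM in Prx-cKO, and that of mt-Rnr2 768 and 763 against 472 and 629 CPM. Their log2 fold changes of -0.33 (adjusted p = 0.591) and -0.48 (adjusted p = 0.484) did not pass in edgeR.

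Of the 20 tested tRNA genes, 17 had lower fitted means in Prx-cKO, with a median log2 fold change of -0.60. EdgeR called 0 of them, and 4 had an unadjusted p under 0.05, beside 10.5% of all genes. DESeq2, which gave no adjusted p for 3, called mt-Te alone (adjusted p = 0.0049), beside 1.97%. Of all 22, 9 were lower without overlap. Among the 20 that passed the filter there were 7, beside 21% of all genes. The asparagine, cysteine and leucine tRNA genes mt-Tn, mt-Tc and mt-Tl1 had the highest mean levels, and mt-Te (glutamate) and mt-Ta (alanine) are shown beside them because they complete the 4 with a low unadjusted p, a choice made after their values were seen. The sequences follow on the strand of each gene with the anticodon in capitals, at chrM:5089-5159, chrM:5192-5257, chrM:14071-14139 and chrM:5018-5086 on the minus strand and, for mt-Tl1, chrM:2676-2750 on the plus strand.
mt-Tn: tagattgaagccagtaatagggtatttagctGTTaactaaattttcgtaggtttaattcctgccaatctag
mt-Tc: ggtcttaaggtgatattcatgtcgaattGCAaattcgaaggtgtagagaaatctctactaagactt
mt-Te: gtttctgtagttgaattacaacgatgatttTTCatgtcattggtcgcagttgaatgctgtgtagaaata
mt-Ta: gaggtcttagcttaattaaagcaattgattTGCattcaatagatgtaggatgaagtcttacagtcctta
mt-Tl1: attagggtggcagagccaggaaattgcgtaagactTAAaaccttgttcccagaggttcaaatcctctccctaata
The level of mt-Te was 20.4 and 19.1 CPM in WT and 10.5 and 9.72 CPM in Prx-cKO, a log2 fold change of -0.97 (SE 0.20, adjusted p = 0.382, edgeR). For mt-Tn it was 39.7 and 27.9 against 15.6 and 20.7 CPM, for mt-Tc 26.9 and 22.1 against 12.48 and 16.6 CPM, and for mt-Ta 25.3 and 12.8 against 7.79 and 10.5 CPM. None of these groups overlapped, and the log2 fold changes were -0.89, -0.75 and -1.04 (adjusted p = 0.443, 0.446 and 0.474, edgeR). The plus-strand gene mt-Tl1 was at 23.2 and 16.4 against 15.2 and 12.1 CPM (log2 fold change -0.54, adjusted p = 0.538, edgeR).

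Sorted by strand after these values were seen, the 9 minus-strand members (mt-Nd6 and 8 tRNA genes) had a median log2 fold change of -0.75 in the forelimb, and 6 of the 9 were lower without overlap, beside 21% of all genes. They are not 6 separate observations, since mt-Ta, mt-Tn, mt-Tc and mt-Ty are neighbours at chrM:5018-5326 and mt-Te adjoins mt-Nd6. The 26 tested plus-strand members, more of them coding and rRNA genes, had a median of -0.40. Within the tRNA genes the medians were closer, at -0.71 for the 8 on the minus strand and -0.57 for the 12 tested on the plus strand, with 5 and 2 lower without overlap. Per 100 plus-strand coding counts, the minus-strand genes had 2.65 and 2.42 counts in WT and 1.72 and 1.71 in Prx-cKO, mostly mt-Nd6 (2.26 and 2.05 against 1.52 and 1.41). The exact permutation p of this ratio was 0.333, the smallest that 2 against 2 can give, so that test could not pass. In the cultures the same ratio was 1.68 to 2.05, with 1.79 to 1.91 in WT R0D3 and 1.68 to 1.95 in LysM-cKO R0D3. Use of strand in counting is not given, so reads from plus-strand RNA over the minus-strand genes cannot be told apart from their own.

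**Figure D5:**
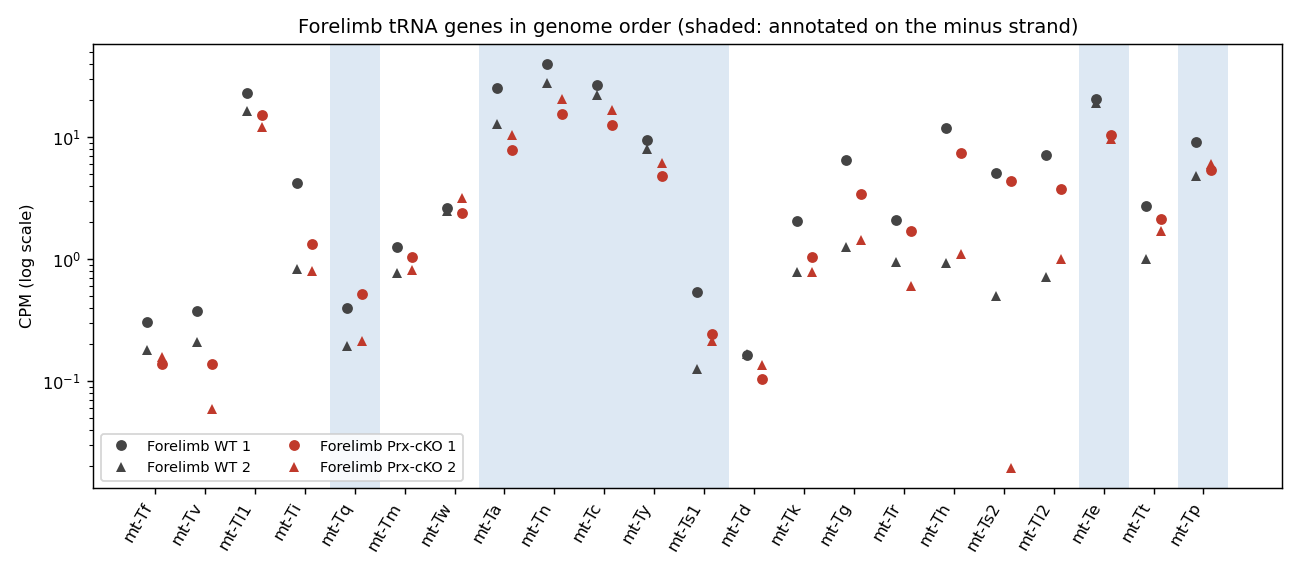
CPM (log scale) of the 22 tRNA genes in genome order in the 4 forelimb libraries, WT in grey and Prx-cKO in red, circles for replicate 1 and triangles for replicate 2, with genes on the minus strand shaded. The shaded mt-Ta, mt-Tn, mt-Tc, mt-Ty and mt-Te lie lower in both Prx-cKO libraries, and mt-Th, mt-Ts2 and mt-Tl2 split by replicate number.

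Libraries of 1 genotype also differed in mitochondrial RNA. Replicate 1 exceeded replicate 2 in both genotypes for 10 of the 13 coding genes, with a median ratio of 1.39 in WT and 1.32 in Prx-cKO. Neither this number of genes nor the next is set beside a share over all genes. For 6 of the 22 tRNA genes the ratio was over 2 in both, some on few counts (mt-Tq with 11 to 17, mt-Ts2 with 1 in Prx-cKO replicate 2). Among these the histidine tRNA gene mt-Th had ratios of 12.7 and 6.82, at 11.9 and 0.933 CPM in WT and 7.47 and 1.10 CPM in Prx-cKO, and mt-Tl2, a leucine tRNA gene, had 10.1 and 3.76 (both chosen after their values were seen). The erythroid marker sum was also higher in replicate 1, at 4415 and 3141 CPM in WT and 4163 and 3310 CPM in Prx-cKO. Between genotypes, limb mesenchyme markers summed to 1646 and 1756 CPM in WT and 1209 and 1299.6 CPM in Prx-cKO, and skeletal muscle markers to 449 and 413 against 1162 and 511 CPM. The part of these cell types in the mitochondrial values was not tested.

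The nuclear genes that serve mitochondrial RNA were followed in 5 lists. In R40D3 against R0D3, every list member called by edgeR was higher. Of 23 genes for RNA processing, polyadenylation and decay, 10 rose in WT and 8 in LysM-cKO, beside the 11.4% and 6.99% of all genes, and their medians were 0.44 and 0.45. They included Lrpprc, which stabilises mitochondrial messenger RNAs (log2 fold change 0.76 in WT and 0.63 in LysM-cKO), Trmt10c, a subunit of the enzyme that cuts the 5′ ends of tRNAs (1.06 and 0.74), and Fastk (1.34 and 0.94). The helicase Supv3l1 of the mitochondrial degradosome rose by 1.02 in WT, Fastkd1 by 1.16 in WT and 1.13 in LysM-cKO, and Mtres1 by 0.89 in WT and 1.121 in LysM-cKO. For this list the block fit called 12 in WT and 11 in LysM-cKO, beside 28.3% and 21.3% of all genes called in either direction.

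Of the 12 translation factors, 4 rose in WT and 3 in LysM-cKO, beside the same 11.4% and 6.99%: the elongation factors Gfm1 (1.28 and 0.95) and Tufm (1.01 and 0.65), Taco1, which aids translation of mt-Co1 (1.21 and 1.00), and in WT Gfm2 (0.60). The block fit called 6 and 5 of the translation factors, beside 28.3% and 21.3% of all genes in either direction. Of the 19 RNA modification genes, 6 rose in WT, beside 11.4%, and 2 in LysM-cKO, near the 6.99% of all genes. They included the cytosine methyltransferase Nsun2 (1.16 and 0.96), and in WT Mrm3 (1.34), Mrm1 (0.48), Mto1 (0.48) and Pus1 (0.46), with Trmt5 in LysM-cKO (0.70). The block fit called 7 and 2 of the modification list, beside the same 28.3% and 21.3%. Of the 11 transcription genes, 2 rose in WT, Mrpl12 (1.10) and Mterf2 (1.47), and 1 in LysM-cKO, Mrpl12 (0.91), counts near the 11.4% and 6.99% of all genes. The block fit called 4 and 3 higher, beside 16.7% and 13% of all genes called higher by that fit. None of the 15 genes for DNA replication and upkeep passed edgeR in either genotype. Their smallest p were for Polg2 (-0.82, adjusted p = 0.0538) and the helicase Twnk (0.50, adjusted p = 0.0599) in WT, and for Twnk (0.50, adjusted p = 0.0843) in LysM-cKO, and the block fit called Polg2, Twnk and Tk2 in WT, beside 28.3% of all genes in either direction, and Twnk in LysM-cKO, beside 21.3%. The medians of this list were -0.02 in WT and -0.01 in LysM-cKO.

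Between genotypes no member of the 5 lists passed edgeR or the block fit in any of the 3 comparisons or in the interaction. Of all genes tested, edgeR called 0% in the forelimb and the interaction, and 0.0143% at R40D3 and at R0D3. The block fit called 0% in the forelimb and the interaction, 0.214% at R40D3 and 0.0214% at R0D3. The list medians in the forelimb were -0.12 for transcription, 0.08 for replication and upkeep, 0.12 for processing, 0.18 for translation and 0.18 for modification. The smallest p there were for Nsun4 (log2 fold change 1.22) and Pus1 (0.80) of the modification list, where the adjusted p was at least 0.332, Gfm1 (0.31), Tufm (0.55), Slc25a36 (-0.40), Top1mt (0.68), Mrpl12 (0.58), Mterf2 (-0.44), Tbrg4 (0.38) and Mtpap (-0.32). At R40D3 the smallest adjusted p over the lists was 0.647, with Supv3l1 (-0.36) and Fastk (-0.35) first in the processing list, Tefm (-0.33) and Mrpl12 (-0.40) in transcription, Tufm (-0.29) and Gfm1 (-0.29) in translation, Mrm1 (-0.44) and Mrm3 (-0.66) in modification, and Slc25a36 (0.29) and Top1mt (-0.45) in replication. At R0D3 it was 0.997, with Mtres1 (-0.44) and Pde12 (0.21), Mterf2 (-1.19) and Tfam (-0.14), Mrrf (-0.30) and Mtrf1 (-0.27), Trmu (-0.38) and Rpusd4 (-0.18), and Slc25a36 (0.14) and Tk2 (-0.20) first in the same lists. In the interaction the smallest p were for Pde12 (-0.31) and Fastk (-0.41), Tfam (0.21) and Tefm (-0.26), Mtrf1 (0.57) and Tufm (-0.36), Mrm3 (-0.90) and Mto1 (-0.29), and Tk2 (0.35) and Mpv17 (0.21), where edgeR's adjusted p rounded to 1.00.

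Over the 8 culture libraries, the nuclear genes whose log2 CPM followed the summed coding genes most closely were Vcl (Pearson r = 0.993), Bcr (0.993), Sh3pxd2a (0.986), Got1 (0.982) and Gcnt2 (0.982), of 14014 genes compared. The 8 points are the same 4 groups of 2 libraries that differ in the coding share, so this is a description of these libraries.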

How the data were processed

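The authors deposited raw counts for each Ensembl identifier, with the 4 forelimb libraries in 1 table and the 8 cultures split over 2 tables by replicate number. Per the labels' protocols, total RNA was extracted with TRIzol and libraries were made with an mRNA kit. The submitters' processing notes name FastQC 0.11.2, Trimmomatic 0.36, HISAT2 2.1.0, DESeq2 1.12.4 and GRCm38. The counting tool, annotation, use of strand and handling of multiply matching reads are not given in the sources used here. Every measurement column matched a sample, and no pair of replicates came within sampling noise of each other (chi-square per degree of freedom at least 10.7).

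Symbols matched 99.6% (forelimb) and 99.5% (culture) of identifiers. Counts were filtered by filterByExpr, scaled by TMM and tested with edgeR 4.0.16 (quasi-likelihood, legacy = FALSE, R 4.3.3), with Benjamini-Hochberg adjustment over all 19987 forelimb or 14030 culture genes tested, two-sided, and a gene was called where that p was under 0.05. The forelimb was fitted alone and the 8 cultures together, as group means. Every fit used the whole table. DESeq2 1.42.0, other scalings, no filter, legacy = TRUE, nuclear copies added and left-out replicates were alternatives. The steps were tested on simulated data. Shares of counts were compared with exact permutation tests (scipy 1.17.1). Counting depth limits precision less than the spread between 2 libraries does, except for the low genes. Nuclear copies were found by matching the member genes to GENCODE M21 transcripts (GRCm38) with blastn 2.17.0, at 95% identity or more over 100 bases or more.

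The members and gene lists were chosen with earlier results of these data known. Named were all coding and rRNA genes, the 3 most abundant tRNA genes and called tRNA genes, and copies with over 1% of the counts of the gene they match. From each nuclear list up to 5 called genes were named or, with none called, the 2 with the smallest p, and the 5 nuclear genes most alike in the cultures. In the cultures, libraries with the same number deviated together from the means of their groups, for all 6 pairs of groups (r = 0.343 to 0.609). The numbers were therefore taken to pair the samples. Where a fit blocked on the number changed the count of called members or list genes, its count stands beside.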

Additional observations from a re-analysis of the deposited data

How the results depend on the processing

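In WT R40D3 against R0D3, 3 coding genes were called, 5 by DESeq2, 8 with the replicate block, 7 when only the 4 libraries compared were fitted, and 0 in each of the 4 fits that left out a library (range 0 to 0). In LysM-cKO R40D3 against R0D3, 0 were called, 3 by DESeq2, 6 with the replicate block, 1 without the filter on low counts, 1 with nuclear copies added, and 0 to 1 when a library was left out (1 without LysM-cKO R40D3 replicate 1). The fits without a library rest on fewer samples, and the cause of the other changes was not tested. The difference in coding share between R40D3 and R0D3 was 0.641 to 0.782 percentage points without a library, beside 0.710 with all 8; with 3 against 4 libraries the exact permutation p was 0.0571, the smallest that design can give. In the 3 comparisons of genotypes and the interaction, 0 coding genes were called under every alternative run, the replicate block included. In the forelimb the same-numbered deviations correlated at r = 0.261 over 2 pairs, lower than in the cultures. Whether the numbers pair the forelimb libraries is not known, and the fit without the block was kept there. The block fit gave 0 calls and a median of -0.28. Restricting the coding genes to the 7 abundant ones was chosen after seeing the data. The 6 low genes, at 3 to 833 counts per culture library, and the tRNA genes are those limited by depth.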
